A study of Mus musculus with 10 samples.

Results

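A set of 10 genes that supply, build and sulfate chondroitin chains was followed in mouse knee cartilage with and without the microRNA gene Mir324, out of 35705 genes in the table. They were chosen by name, as Slc26a2, Papss1, Papss2, Ugdh, Slc35d1, Xylt1, Csgalnact1, Chsy1, Chst11 and Chst3, and all 10 reached the mean of 1 TPM required for testing. The cartilage cap of the medial knee was taken from 5 wild-type and 5 Mir324-null mice, with 1 RNA sequencing library per mouse, in a study of how miR-324 acts on bone-forming and bone-resorbing cells. Neither group was treated, and the labels give no other allele, strain, age or sex, nor how the null allele was made. Values are TPM, kallisto's level of a transcript relative to all transcripts of its library after allowing for length, so the read depth behind them is unknown.

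Chondroitin sulfate gives cartilage its stiffness under load, because the sulfated chains on the core protein aggrecan hold water. Sulfate enters the cell through Slc26a2, is activated to the sulfate donor PAPS by Papss1 or Papss2, and is placed on the chain by sulfotransferases such as Chst11 and Chst3. The chain is started on the core protein by Xylt1 and extended from UDP-sugars, which Ugdh makes and Slc35d1 carries into the endoplasmic reticulum, with Csgalnact1 adding the first chondroitin sugar and Chsy1 extending the polymer. Inherited loss of Slc26a2, Papss2, Chst3, Slc35d1 or Xylt1 function is known to disturb the human skeleton.

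The null mice lack the hairpin from which miR-324-5p and miR-324-3p are cut, so the mature strands are shown with 2 of the 3 sites found for them in these genes. In the mature sequences the capitals are the seed (bases 2 to 8), and in the sites they are the 7 bases complementary to that seed. Sequences of the strands are from RefSeq (GRCm38.p6, chromosome 11, plus strand, 70012060 to 70012082 and 70012095 to 70012114), and the sites are from the longest 3′ UTR annotated for each gene in GENCODE M21 (GRCm38).
mmu-miR-324-5p: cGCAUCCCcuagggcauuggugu
mmu-miR-324-3p: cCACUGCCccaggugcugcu
Chst3 site for miR-324-3p: cacacccagcctGGCAGTGagacat
Slc35d1 site for miR-324-3p: ctgggtggccctGGCAGTGtataca
The letters GGGATGC, searched on the transcribed strand for miR-324-5p, were in 0 of the 10 genes, against 8.50% of 12587 genes tested that have an annotated 3′ UTR. The letters GGCAGTG, searched in the same way for miR-324-3p, were in 3 of the 10, against 15.4% of the 12587. Those 3 genes were Chst3, Slc35d1 and Slc26a2, whose longest 3′ UTRs of 4071, 3023 and 5219 bases exceed the median of 1149 bases. The Chst3 match begins 71 bases into the 3′ UTR of Chst3-201 (chromosome 10, minus strand, 60185528 to 60185534) and is followed by an adenosine, which makes it an 8mer. Chst3-203, the transcript with 92.1% of the Chst3 TPM, ends at its stop codon in this annotation, so whether the sequence measured carries the site was not tested. The Slc35d1 match begins 247 bases into the 3′ UTR of Slc35d1-203 (chromosome 4, minus strand, 103173419 to 103173425), and is also in the most abundant transcript, Slc35d1-201. A match of letters is a description of sequence and not evidence of binding.

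The libraries hold RNA of bone and marrow beside cartilage, although the labels name the cell type as chondrocyte. The summed TPM of 7 erythroid markers lay between 112640 and 198844 in wild-type and between 159238 and 263631 in null libraries, while that of the 12 chondrocyte markers tested lay between 557 and 1621 in wild-type and between 443 and 810 in null libraries. Of 15 chondrocyte markers, Matn1, Matn3 and Col9a1 did not reach a mean of 1 TPM, and the 10 osteoblast and osteocyte markers summed to 5407 to 12907 TPM in wild-type and 3081 to 6146 TPM in null libraries. At an unadjusted limma p under 0.05, 9 of the 12 chondrocyte and 9 of the 10 osteoblast and osteocyte markers were lower in null libraries, and 4 of the 7 erythroid markers were higher. Of the other lists, 6 of 6 osteoclast, 5 of 6 adipocyte, 4 of 8 B lineage and 2 of 6 endothelial markers were lower at that threshold and 1 of 8 synovial and other fibroblast markers was higher (median differences -0.97, -0.72, -0.45, -0.21 and 0.52), against 7.30% lower and 4.28% higher of all genes. The 8 neutrophil and 2 tested muscle markers gave 0 in either direction. In such bulk samples, fewer cells of a type and less RNA per cell cannot be told apart. Wild-type replicate 1 had the highest chondrocyte score of the 10 libraries, 6.14 as mean log2(TPM + 1), against 4.63 to 5.69 in the other wild-type and 4.17 to 4.97 in the null libraries. In the limma fit of 13841 genes, the genotypes differed at an adjusted p under 0.05 for 0 genes (0%) and at an unadjusted p under 0.05 for 1603 (11.6%).

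The levels of the 10 genes spanned about an order of magnitude. Ugdh, which makes UDP-glucuronic acid, was highest with a mean of 39.6 TPM over the 10 libraries, followed by Chst11 at 20.4, Papss1 at 20.4, Chsy1 at 16.8, Papss2 at 14.4, Chst3 at 10.4, Xylt1 at 10.1, Csgalnact1 at 5.39, Slc26a2 at 4.82 and Slc35d1 at 3.92 TPM. These means lay between the 20.6th percentile (Slc35d1) and the 78.5th percentile (Ugdh) of the genes tested. Steps in this order that held in all 10 libraries were Ugdh above Chst11, Papss1 above Chsy1 and Xylt1 above Csgalnact1. Chst11 and Papss1 were not separated, as Chst11 was the higher of the pair in 4 of 10 libraries, and Csgalnact1 exceeded Slc26a2 in 6 of 10 and Chst3 exceeded Xylt1 in 7 of 10.

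Sulfate supply was examined first. Slc26a2 (ENSMUSG00000034320, chromosome 18), the sulfate transporter of the cell membrane, measured 6.71, 4.79, 4.90, 4.99 and 5.04 TPM in wild-type replicates 1 to 5, and 3.76, 5.01, 4.91, 4.61 and 3.52 TPM in null replicates 1 to 5. Wild-type replicate 1 stood above the rest, 3 null libraries were below every wild-type library, and the groups overlapped. The means were 5.28 ± 0.801 TPM in wild-type mice and 4.36 ± 0.682 TPM in the null mice (SD, n = 5), a difference of -0.23 on the log2(TPM + 1) scale (95% interval -0.52 to 0.062, adjusted p = 0.552 in limma), and -0.14 after quantile normalization.

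Papss2 (ENSMUSG00000024899, chromosome 19, plus strand, 32595790 to 32667187), the PAPS synthase on which cartilage mainly depends, had the largest difference of the 10 genes. It measured 27.5, 14.8, 11.5, 17.3 and 14.9 TPM in wild-type replicates 1 to 5, and 10.5, 13.2, 12.5, 13.3 and 8.86 TPM in null replicates 1 to 5. Only wild-type replicate 3 lay within the null range, and the other 4 wild-type libraries were above every null library. Means were 17.2 ± 6.13 TPM in wild-type mice and 11.7 ± 1.92 TPM in the null mice (SD, n = 5). The difference of -0.48 on the log2(TPM + 1) scale (SE 0.200, 95% interval -0.92 to -0.043) had an unadjusted limma p of 0.0341 and an exact permutation p of 0.0476 (two-sided), and it did not pass adjustment over all genes (adjusted p = 0.391 in limma, 0.209 to 0.657 over the alternatives). The unadjusted limma p was under 0.05 in 15 of 20 alternatives, and the exceptions were the rescaling without haemoglobin genes (0.0524) and leaving out wild-type replicate 1 (0.0682, difference -0.30), wild-type replicate 4 (0.0617), null replicate 1 (0.0667) or null replicate 5 (0.0841).

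Papss1 (ENSMUSG00000028032, chromosome 3, plus strand, 131564768 to 131643671), the PAPS synthase found in most tissues, showed no such pattern. Its levels were 22.8, 23.9, 19.0, 18.7 and 18.2 TPM in wild-type replicates 1 to 5, and 20.6, 17.9, 26.0, 20.99 and 16.0 TPM in null replicates 1 to 5. Null libraries held both the highest and the lowest value. With means of 20.5 ± 2.61 and 20.3 ± 3.79 TPM (SD, n = 5), the difference was -0.025 on the log2(TPM + 1) scale (95% interval -0.32 to 0.27, adjusted p = 0.973 in limma), and its sign turned with scaling, being 0.027 after median ratio scaling.

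**Figure D1:**
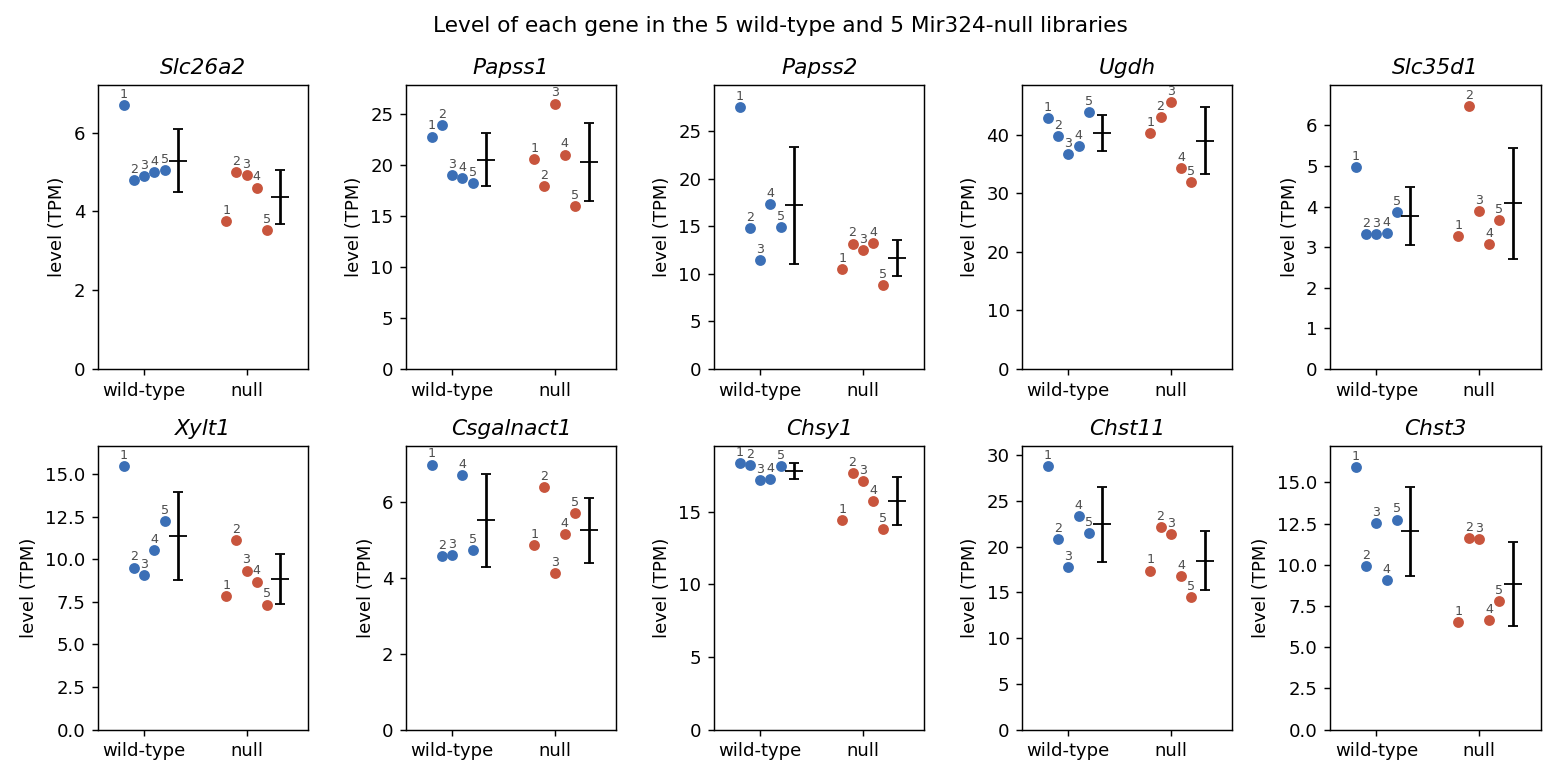
Level in TPM (vertical axes, from 0) of each of the 10 genes in the 5 wild-type (blue) and 5 Mir324-null (red) libraries, with the replicate number above each point and the mean ± SD in black. Wild-type replicate 1 is the highest of all libraries for 7 genes, and the groups overlap for each of the 10.

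Both genes of sugar supply had small estimated differences between the genotypes, and their 95% intervals included 0. Ugdh (ENSMUSG00000029201, chromosome 5, minus strand, 65413221 to 65435949) ranged from 36.8 to 43.8 TPM in wild-type and from 31.9 to 45.5 TPM in null libraries, with medians of 39.8 and 40.3 TPM. Its means were 40.3 ± 3.03 and 39.0 ± 5.75 TPM (SD, n = 5), a difference of -0.053 on the log2(TPM + 1) scale (95% interval -0.29 to 0.19, adjusted p = 0.921 in limma). Slc35d1 (ENSMUSG00000028521, chromosome 4, minus strand, 103170649 to 103215164), the transporter of UDP-sugars into the endoplasmic reticulum, ranged from 3.32 to 4.98 TPM in wild-type and from 3.08 to 6.47 TPM in null libraries. Null replicate 2 held the highest value, and the other null libraries were at or below 3.89 TPM. Slc35d1 had the only difference above 0 among the 10 genes, 0.066 on the log2(TPM + 1) scale (95% interval -0.33 to 0.46, adjusted p = 0.942 in limma), and without null replicate 2 it was -0.082.

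Of the enzymes that start and extend the chain, Xylt1 had 3 and Chsy1 had 4 null libraries below every wild-type library, and Csgalnact1 had 1. Xylt1 (ENSMUSG00000030657, chromosome 7, plus strand, 117380979 to 117673580), which transfers the xylose that links chain to core protein, measured 15.5, 9.51, 9.09, 10.6 and 12.3 TPM in wild-type replicates 1 to 5, and 7.83, 11.1, 9.34, 8.68 and 7.34 TPM in null replicates 1 to 5. Null replicates 1, 4 and 5 were below every wild-type library, and null replicate 2 was above 3 of the wild-type libraries. The difference was -0.32 on the log2(TPM + 1) scale (95% interval -0.66 to 0.024, unadjusted p = 0.0653 and adjusted p = 0.468 in limma), and -0.21 without wild-type replicate 1.

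Chsy1 (ENSMUSG00000032640, chromosome 7, plus strand, 66109515 to 66173798), a chondroitin synthase that lengthens the polymer, was the steadiest of the 10 genes in wild-type mice. It measured 18.4, 18.2, 17.2, 17.3 and 18.2 TPM in wild-type replicates 1 to 5, a coefficient of variation of 3.16%, and 14.4, 17.7, 17.1, 15.7 and 13.8 TPM in null replicates 1 to 5. In 4 null libraries the level was below every wild-type library, and null replicate 2 lay inside the wild-type range. Its difference of -0.18 on the log2(TPM + 1) scale (95% interval -0.38 to 0.030) had an exact permutation p of 0.0317 (two-sided), an unadjusted limma p of 0.0877 and an adjusted limma p of 0.509. After rescaling without the haemoglobin genes the difference was -0.091. Its spread within genotypes was at the 3.90th percentile of all genes tested.

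Csgalnact1 (ENSMUSG00000036356, chromosome 8, minus strand, 68356781 to 68735146), which adds the first N-acetylgalactosamine, ranged from 4.58 to 6.99 TPM in wild-type and from 4.13 to 6.40 TPM in null libraries. Means of 5.52 ± 1.22 and 5.26 ± 0.858 TPM (SD, n = 5) gave a difference of -0.051 on the log2(TPM + 1) scale (95% interval -0.39 to 0.29, adjusted p = 0.948 in limma), which was 0.027 without wild-type replicate 1.

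Both sulfotransferases were lower in the null mean. Chst11 (ENSMUSG00000034612, chromosome 10, plus strand, 82985498 to 83195900), which sulfates chondroitin at the 4-position and is needed in the growth plate, measured 28.8, 20.8, 17.8, 23.3 and 21.5 TPM in wild-type replicates 1 to 5, and 17.4, 22.2, 21.3, 16.8 and 14.5 TPM in null replicates 1 to 5. Null replicates 1, 4 and 5 were below every wild-type library, while null replicates 2 and 3 lay inside the wild-type range. The difference was -0.27 on the log2(TPM + 1) scale (95% interval -0.59 to 0.052, adjusted p = 0.513 in limma), and -0.18 without wild-type replicate 1.

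Chst3 (ENSMUSG00000057337, chromosome 10, minus strand, 60181532 to 60219260), which sulfates chondroitin at the 6-position, measured 15.9, 9.90, 12.5, 9.08 and 12.7 TPM in wild-type replicates 1 to 5, and 6.54, 11.6, 11.6, 6.66 and 7.80 TPM in null replicates 1 to 5. Null replicates 1, 4 and 5 were low, all below every wild-type library, and null replicates 2 and 3 were higher, both inside the wild-type range. Means were 12.04 ± 2.70 and 8.83 ± 2.56 TPM (SD, n = 5), and the difference was -0.42 on the log2(TPM + 1) scale (95% interval -0.85 to 0.0034, unadjusted p = 0.0516 and adjusted p = 0.436 in limma).

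**Figure D2:**
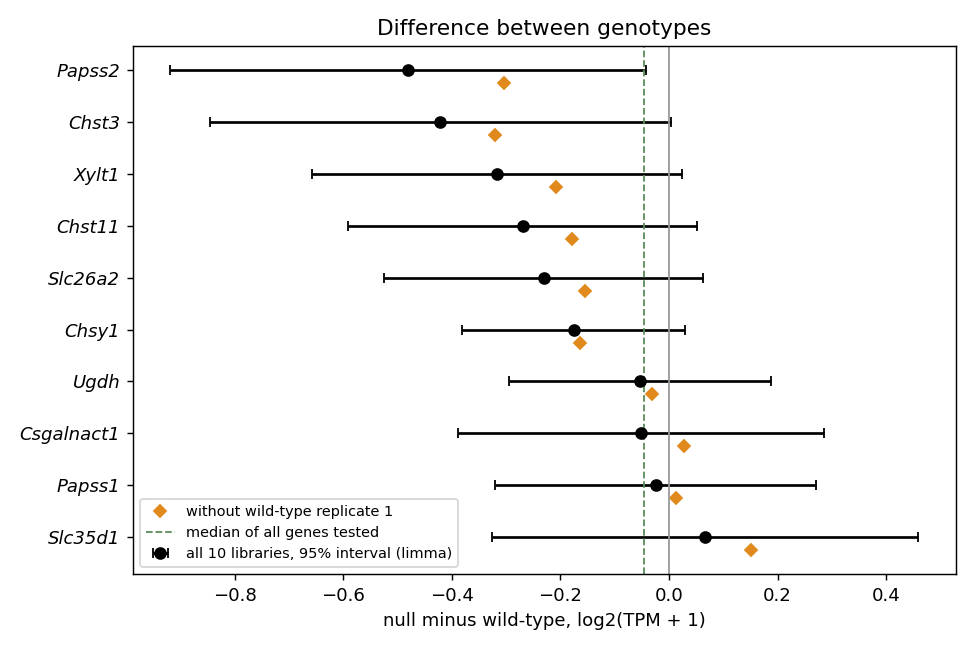
Difference between null and wild-type mice on the log2(TPM + 1) scale (horizontal axis) for each gene, with the 95% interval of the limma fit over 10 libraries in black and the value without wild-type replicate 1 in orange. The dashed line is the median of all genes tested, -0.045, and the interval of Papss2 alone lies below 0.

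Read against all genes, the 10 leaned lower in null mice without a call that passed adjustment. The estimate was below 0 for 9 of the 10, where 60.0% of the genes tested were below 0, and their median difference was -0.20 against -0.045 for all genes. Papss2 was the 1 gene of 10 lower at an unadjusted p under 0.05, where 7.30% of genes were, 0 of 10 were higher at that threshold, where 4.28% were, and 0 of 10 passed at an adjusted p under 0.05, where 0% did. All 5 null libraries were below the wild-type mean for 6 of the 10 (Papss2, Chst3, Xylt1, Chst11, Slc26a2 and Chsy1), where 16.3% of genes showed this, while the genotypes separated without overlap for 0 of 10, where 1.94% of genes did (1.06% with all null libraries lower and 0.881% with all higher). The count of genes below 0 was 8 after median ratio scaling, 7 after quantile normalization, 6 after rescaling without the haemoglobin genes and 7 without wild-type replicate 1. In the same order, the median difference of all genes was 0.0033, 0.0038, 0.036 and -0.016. The 60.0% therefore does not apply to these counts, and the share of all genes below 0 in these settings was not computed. The 6 genes named here stayed below 0 in each alternative run. By the exact permutation test (two-sided), p was under 0.05 for Papss2 (0.0476) and Chsy1 (0.0317). For the rest of the 10 genes this p lay between 0.0794 (Slc26a2) and 0.849 (Papss1). The share of all genes under 0.05 by this test was not computed. The 3 genes with a site for miR-324-3p had differences of -0.42 (Chst3), -0.23 (Slc26a2) and 0.066 (Slc35d1).

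The same libraries were high or low for most of the 10 genes. Wild-type replicate 1 was above the 10-library mean for 10 of 10 genes, and the sum of their TPM there was 190 against 137 to 155 in the other wild-type libraries. Null replicate 5 was below the mean for 9 of 10, with a sum of 113.0 TPM, and null replicate 4 was also below it for 9 of 10, with 129 TPM. Null replicates 2 and 3 were above the mean for 8 and 7 genes, with sums of 154 and 156 TPM, inside the wild-type range.

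Correlations between the 10 genes were described for the 6 whose null libraries were all below the wild-type mean and for the other 4. Over the 10 libraries, Pearson r between members of this group had a median of 0.82 over 15 pairs (0.61 to 0.92), with the closest pair Xylt1 and Slc26a2 at 0.92. Among Papss1, Ugdh, Csgalnact1 and Slc35d1 the median was 0.19 over 6 pairs (-0.38 to 0.52), and it was 0.44 over the 24 pairs between the groups. The choice of the 6 by their genotype difference raises their r over both genotypes, and with values centred on the genotype means the medians were 0.74 (0.40 to 0.88), 0.20 and 0.51, with overlapping ranges. These values describe libraries that share a fixed total, and the division into 6 and 4 genes was made after the values were seen.

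The level of each gene was then compared over the 10 libraries with marker scores, the mean log2(TPM + 1) of a list, in 40 relations (10 genes and 4 lists), with p-values adjusted over the 40. Papss2 followed the chondrocyte score closely, with Pearson r = 0.93 (permutation p = 0.00012, adjusted 0.0012) and Spearman rho = 0.90 (permutation p = 0.00078, adjusted 0.00989). Leaving out the libraries with the most extreme scores, wild-type replicate 1 and null replicate 1, gave r = 0.86, and r was 0.89 when values were centred on their genotype means. Centred in this way, r was 0.87 for Chst11, 0.79 for Xylt1, 0.78 for Slc26a2 and 0.53 for Chsy1. Chst11 gave r = 0.91 and rho = 0.88 (permutation p = 0.00015 and 0.00151, adjusted 0.0012 and 0.00989), with r = 0.87 without those libraries. Xylt1 gave r = 0.87 and rho = 0.89 (permutation p = 0.00162 and 0.00119, adjusted 0.0072 and 0.00989), with r = 0.66 without them. Slc26a2 gave r = 0.86 and rho = 0.81 (permutation p = 0.00291 and 0.0073, adjusted 0.0106 and 0.0265), with r = 0.60 without them. Chsy1 gave r = 0.73 and rho = 0.90 (permutation p = 0.0197 and 0.00078, adjusted 0.0485 and 0.00989), with r = 0.62 without them. Chsy1 did not pass after median ratio scaling, quantile normalization or rescaling without the haemoglobin genes (r = 0.51, 0.54 and 0.57, adjusted permutation p = 0.307, 0.261 and 0.179), and Slc26a2 did not pass after quantile normalization (r = 0.71, adjusted permutation p = 0.0857).

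Chst3 and the remaining genes did not pass for the chondrocyte score. Chst3 gave r = 0.67 (permutation p = 0.0337, adjusted 0.0709), which was 0.23 without wild-type replicate 1 and null replicate 1. The values of r were 0.59 for Csgalnact1, 0.41 for Ugdh, 0.38 for Slc35d1 and 0.26 for Papss1, with adjusted permutation p between 0.146 and 0.624. So with TPM as deposited the PAPS synthases differed in rank within the group, Papss2 being the highest and Papss1 the lowest of the 10 in r, although this difference in r was not tested. Chst11 was above Papss2 after median ratio scaling (r = 0.95 against 0.92) and after quantile normalization (0.96 against 0.92). After quantile normalization Slc35d1 (-0.071) was also below Papss1 (0.081).

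**Figure D3:**
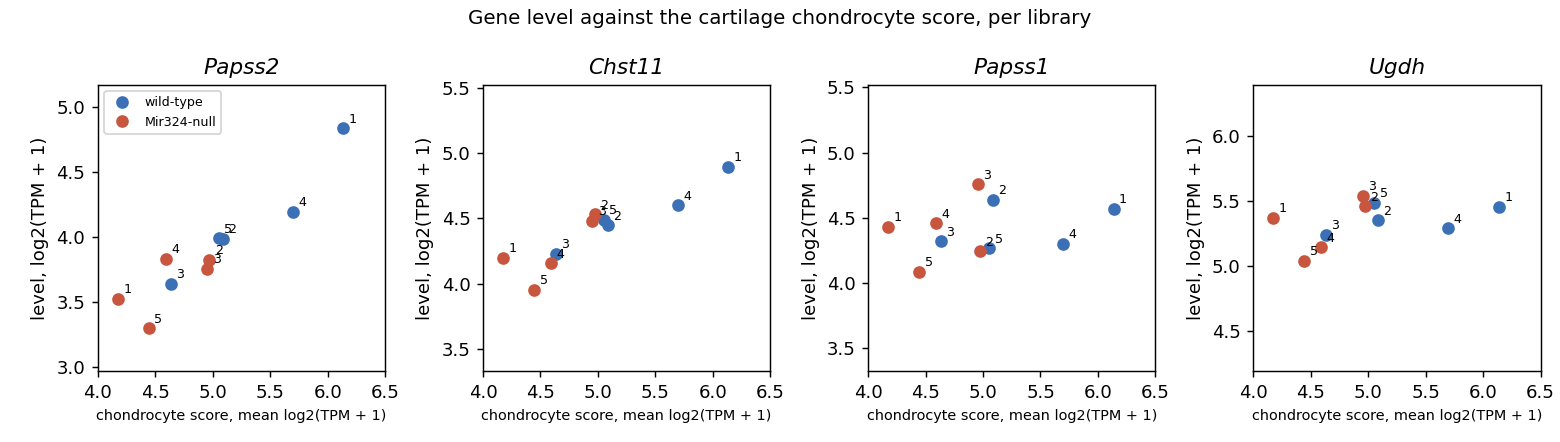
Level of Papss2, Chst11, Papss1 and Ugdh in log2(TPM + 1) (vertical axes, each spanning the same number of log2 units) against the cartilage chondrocyte score (horizontal axes, mean log2(TPM + 1)), 1 numbered point per library. Papss2 and Chst11 are higher where the score is higher (r = 0.93 and 0.91), and the points of Papss1 (r = 0.26) and Ugdh (r = 0.41) do not line up.

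The other 3 scores were read in the same way. With the osteoblast and osteocyte score, 6 genes passed at an adjusted permutation p under 0.05, from Chst11 at r = 0.93 and Slc26a2 and Papss2 at 0.91 to Chst3 at 0.75, and rho passed for 5 of them, with Chst3 at an adjusted p of 0.135. With the erythroid score the relation was inverse for all 10 genes, from r = -0.91 for Xylt1 to -0.23 for Papss1, and 6 passed. Among those that passed, leaving out the 2 most extreme libraries left r between 0.58 and 0.84 with the osteoblast and osteocyte score (wild-type replicate 1 and null replicate 5 left out) and between -0.80 and -0.43 with the erythroid score (wild-type replicates 1 and 5 left out). Centred on the genotype means, r of the same genes was 0.59 (Chst3) to 0.94 (Chst11) and -0.86 (Xylt1) to -0.51 (Chsy1). The permutations ran across genotypes, so a shared genotype difference enters their p-values. What share of all genes tested would pass with the chondrocyte score or with any of these scores was not computed. The counts of genes that passed therefore do not set the 10 genes apart from other genes. With the neutrophil score r lay between -0.20 and 0.47, and 0 of 10 passed by Pearson r or by Spearman rho, while without null replicate 1 and wild-type replicate 5 all 10 values were positive, from 0.040 to 0.76 (Chsy1). The number of relations that passed was 17 with TPM as deposited, 9 after median ratio scaling, 7 after quantile normalization and 11 after rescaling without the haemoglobin genes. Papss2, Chst11 and Xylt1 passed with both skeletal scores under each of these scalings, with r from 0.79 to 0.96, while the erythroid relation passed for 1 gene after median ratio scaling and for 1 after quantile normalization, and for some genes turned positive, up to r = 0.23 after median ratio scaling. Chondrocyte, osteoblast and erythroid markers also differed between the genotypes, and their part in the differences of these genes was not tested.

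**Figure D4:**
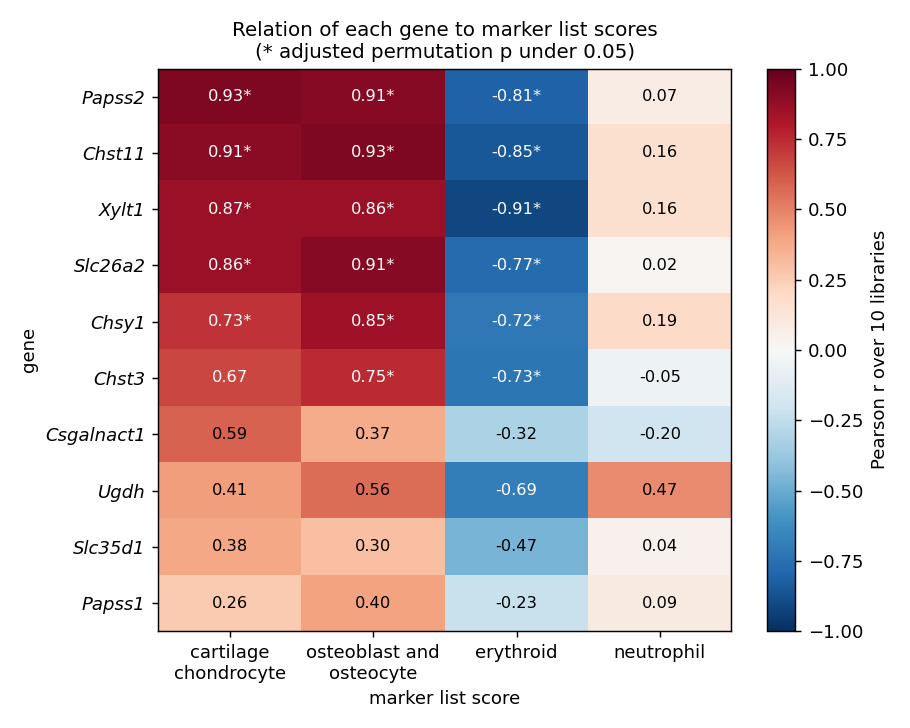
Pearson r over the 10 libraries between the log2(TPM + 1) of each gene (rows) and the scores of 4 marker lists (columns), with red for positive and blue for negative values and a star where the adjusted permutation p is under 0.05. The upper 6 rows reach 0.67 to 0.93 with the chondrocyte score, and the neutrophil column lies between -0.20 and 0.47.

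The 10 genes were also measured against the chondrocyte markers of the same library, whose score was itself lower in null mice. Each gene's log2(TPM + 1) less the chondrocyte score was higher in the null mean, by 0.21 (Papss2) to 0.76 (Slc35d1). The score itself was 5.32 ± 0.593 in wild-type and 4.63 ± 0.341 in null mice (SD, n = 5). That score differed by -0.69, and the lowest difference among the 10 genes was -0.48 (Papss2), so the score fixed the sign of these values. A gene at the median difference of all genes tested, -0.045, would also be higher on this measure. For Papss2 this relative level was -1.19 ± 0.207 in wild-type and -0.98 ± 0.257 in null mice (SD, n = 5), with an exact permutation p of 0.198. For Slc35d1 it was -3.08 ± 0.471 and -2.32 ± 0.277 (SD, n = 5), with all 5 null libraries above the wild-type mean and an exact permutation p of 0.0238. The tests gave 4 of 10 genes an exact permutation p under 0.05 (Slc35d1, Csgalnact1, Chst11 and Ugdh) and 0 of 10 an adjusted one, the smallest adjusted value being 0.0992. Without wild-type replicate 3, the wild-type library with the lowest chondrocyte score, 7 of 10 passed, the exceptions being Papss2, Chst3 and Xylt1. How many of all genes tested pass on this measure was not computed. These counts therefore do not set the 10 genes apart from other genes.

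Ratios within a library were compared for 4 pairs of genes, with tests on the log2 ratio of TPM + 1. Papss2 stood at 1.21, 0.621, 0.605, 0.925 and 0.817 times Papss1 in wild-type replicates 1 to 5, and at 0.512, 0.736, 0.481, 0.632 and 0.555 times in null replicates 1 to 5. All 5 null ratios were below the wild-type mean, and null replicates 2 and 4 lay inside the wild-type range. The difference was -0.46 in the log2 ratio of TPM + 1 (exact permutation p = 0.0635, two-sided, 0.206 after adjustment over the 4 ratios), and -0.32 without wild-type replicate 1. Slc26a2 relative to Papss2 was higher in 5 of 5 null libraries than the wild-type mean, by 0.25 (exact permutation p = 0.103, adjusted 0.206).

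Chst11 exceeded Chst3 in all 10 libraries, by a geometric mean of 1.88-fold in wild-type and 2.13-fold in null mice as plain TPM. In the log2 ratio of TPM + 1, the 4-position to the 6-position enzyme was at 0.85 ± 0.301 and 1.01 ± 0.227 (SD, n = 5), and the genotypes differed by 0.15 (exact permutation p = 0.421, adjusted 0.460). Chsy1 exceeded Csgalnact1 3.29-fold in wild-type and 3.01-fold in null mice as plain TPM, with a difference of -0.12 in the log2 ratio of TPM + 1 (exact permutation p = 0.460, adjusted 0.460).

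The remaining glycosaminoglycan genes were read from 10 lists of 87 genes in all, of which 77 were tested. At an unadjusted limma p under 0.05, 14 were lower and 1 higher in null mice, where 7.30% and 4.28% of all genes were, and 0 had an adjusted p under 0.05. Their median difference was -0.20, against -0.045 for all genes, and 67 of the 77 were below 0, where 60.0% of all genes were. The count of lower genes was 9 after rescaling without the haemoglobin genes, 9 without wild-type replicate 1 and 8 without null replicate 5. For these settings the share of all genes was not computed.

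Partners of the 10 genes in chondroitin synthesis were read list by list. All 4 other genes of chain initiation and polymerization (Csgalnact2, Chsy3, Chpf and Chpf2) were below 0, where 60.0% of all genes were, with a median of -0.34. Csgalnact2, a second enzyme that starts the chondroitin chain, averaged 52.9 ± 8.22 TPM in wild-type mice and 42.2 ± 6.48 TPM in the null mice (SD, n = 5, difference -0.32, unadjusted p = 0.0320, adjusted p = 0.387 in limma). Of 5 sulfate activation and transport genes, 2 were lower at an unadjusted limma p under 0.05, where 7.30% of all genes were. Both are phosphatases that clear the by-product of sulfation: Impad1 (Bpnt2), at 14.2 ± 1.08 and 11.4 ± 1.39 TPM (SD, n = 5, difference -0.30, adjusted p = 0.342), and Bpnt1, at 10.2 ± 1.07 and 8.35 ± 1.15 TPM (SD, n = 5, difference -0.26, adjusted p = 0.427). Slc35b2, which carries PAPS into the Golgi, averaged 40.5 ± 4.46 and 35.9 ± 3.39 TPM (SD, n = 5, adjusted p = 0.571 in limma). The 8 chondroitin and dermatan sulfate modification genes gave 0 at an unadjusted limma p under 0.05 in either direction, with Chst12, a further 4-position sulfotransferase, at 56.8 ± 9.62 and 58.8 ± 10.7 TPM (SD, n = 5) and Chst15 at 15.1 ± 1.70 and 14.6 ± 2.50 TPM. The 10 nucleotide sugar genes, led by Ugp2 at 50.9 ± 4.31 and 47.8 ± 5.83 TPM and Uap1 at 33.6 ± 6.12 and 32.96 ± 4.62 TPM (SD, n = 5), and the 6 linker genes, led by B3gat3 at 33.3 ± 6.19 and 31.4 ± 4.57 TPM and Pxylp1 at 28.9 ± 4.67 and 27.8 ± 6.71 TPM (SD, n = 5), also gave 0 at an unadjusted limma p under 0.05, with median differences of -0.085 and -0.075. After rescaling without the haemoglobin genes these medians were -0.0017 and 0.0096.

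Chains other than chondroitin were read from the same fit. Of 15 heparan sulfate genes tested, 13 were below 0 (60.0% of all genes were), with a median of -0.24, and 4 were lower and 1 higher at an unadjusted limma p under 0.05 (7.30% and 4.28% of all genes). Ext1, a polymerase of heparan sulfate, averaged 21.1 ± 3.20 in wild-type mice and 14.3 ± 3.37 TPM in the null mice (SD, n = 5, difference -0.54, adjusted p = 0.308 in limma). Hs6st1, a sulfotransferase of heparan sulfate, was the 1 gene of the 77 higher at that threshold, at 25.9 ± 4.13 and 32.99 ± 2.67 TPM (SD, n = 5, difference 0.35, adjusted p = 0.335 in limma), with 5 of 5 null libraries above the wild-type mean. Extl1 and Hs3st3a1, at 1.77 ± 1.12 and 2.21 ± 0.989 TPM in wild-type and 0.531 ± 0.255 and 1.01 ± 0.110 TPM in the null mice (SD, n = 5), were lower but near the filter, and Ndst1, which starts sulfation of the chain, was at 25.1 ± 4.70 and 21.1 ± 4.19 TPM. Of 5 keratan sulfate genes, Chst5 was lower, at 10.6 ± 5.82 and 5.57 ± 0.835 TPM (SD, n = 5, difference -0.71, adjusted p = 0.360 in limma), whereas Chst1 was at 10.3 ± 7.05 and 9.01 ± 2.14 TPM and B4galt4 at 8.40 ± 1.32 and 9.61 ± 3.83 TPM. The 5 hyaluronan genes tested gave 0 at that threshold, with Hyal2 at 11.7 ± 1.39 and 12.2 ± 3.64 TPM and Cemip2 at 10.5 ± 1.29 and 9.87 ± 2.43 TPM (SD, n = 5).

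Genes that break the chains down, and the core proteins that carry them, completed the lists. All 11 lysosomal degradation genes were below 0, where 60.0% of all genes were, and 5 of the 11 were lower at an unadjusted limma p under 0.05, where 7.30% were. Arsb, the lysosomal sulfatase of chondroitin 4-sulfate, averaged 56.4 ± 8.28 in wild-type mice and 39.5 ± 10.2 TPM in the null mice (SD, n = 5, difference -0.53, adjusted p = 0.325 in limma). Hexa, a subunit of lysosomal hexosaminidase, was at 176 ± 29.3 and 145 ± 19.1 TPM (SD, n = 5, adjusted p = 0.431 in limma). All 8 core protein genes tested were below 0, and 1 of the 8 was lower at that threshold. This was aggrecan (Acan), the main carrier of chondroitin sulfate in cartilage, at 146 ± 83.4 and 72.0 ± 8.82 TPM (SD, n = 5, difference -0.86, adjusted p = 0.331 in limma). Prg4, the lubricant proteoglycan of the joint surface, was at 2902 ± 1492 and 1737 ± 411 TPM, and Dcn at 968 ± 515 and 781 ± 232 TPM (SD, n = 5, adjusted p = 0.449 and 0.877 in limma). Osteoclast markers, whose cells are rich in lysosomes, were lower in the same libraries, with 6 of 6 tested at an unadjusted limma p under 0.05 and summed levels of 1435 to 3242 TPM in wild-type and 942 to 1933 TPM in null libraries, and their part in these values was not tested.

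**Figure D5:**
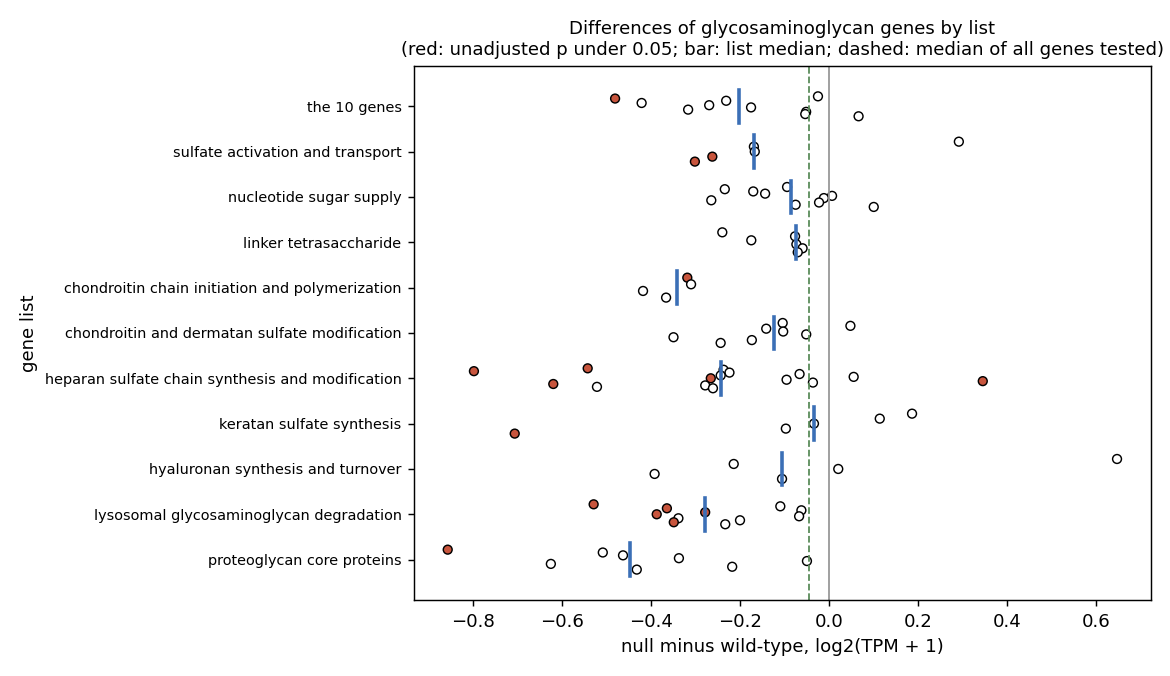
Difference between null and wild-type mice on the log2(TPM + 1) scale (horizontal axis) for the 10 genes and for each tested gene of 10 further lists (rows), with red points at an unadjusted p under 0.05, blue bars at list medians and a dashed line at the median of all genes. Most points lie left of 0, and the 1 red point right of it is Hs6st1.

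Most of the 10 genes were measured through a single transcript. Chst11 and Chsy1 have 1 transcript each in the table, and the most abundant transcript held 98.5% of the TPM of Slc26a2, 97.2% of Xylt1, 92.2% of Papss2, 92.1% of Chst3, 88.7% of Ugdh and 86.7% of Csgalnact1. Slc35d1 was divided between Slc35d1-201, with 64.9%, and Slc35d1-203, with 29.3%. Papss1 was the most divided, with 57.5% in Papss1-201 and 17.7%, 14.8% and 9.02% in Papss1-205, Papss1-202 and Papss1-206. The share of Papss1-206 ranged from near 0 to 45.4% between libraries, so single isoforms of Papss1 were less steady than the gene sum. Counting only transcripts annotated as protein-coding moved the difference of Slc35d1 from 0.066 to -0.0052 and that of Ugdh from -0.053 to -0.13.

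The genes whose pattern over the 10 libraries was most like the mean of the 10, among 10325 other genes averaging 5 TPM or more, were Tmsb10 (r = 0.98, 1220 TPM), Pdrg1 (r = 0.98, 35.5 TPM) and Sfr1 (r = 0.97, 52.0 TPM). Tmsb10, which encodes an actin-binding thymosin, averaged 1298 ± 221 TPM in wild-type mice and 1143 ± 156 TPM in the null mice (SD, n = 5, adjusted p = 0.646 in limma).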

How the data were processed

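The authors deposited a single table of TPM values, with 116912 versioned Ensembl mouse transcripts and a column per mouse. Per the submitters' processing notes the tools were kallisto and DESeq2, and the only genome build named there is GRCh38, a human build. The index, trimming and read layout were not given in the sources used here. Transcript identifiers were matched without version to GENCODE M21 (GRCm38), which placed 115440 of them, and TPM was summed to 35705 genes. The unmatched transcripts held 0.275% to 0.356% of a library. Columns matched the sample titles, and 0 columns belonged to other samples.

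The 13841 genes averaging 1 TPM or more were tested as log2(TPM + 1) with limma 3.58.1 in R 4.3.3 (eBayes with trend), two-sided, with Benjamini-Hochberg adjustment over all genes tested. Single values, ratios and levels relative to the chondrocyte score used the exact permutation test over all divisions of the 10 mice, 5 against 5, whose smallest possible p is 0.00794. Relations to scores used 100000 permutations. Steps ran in Python 3.11.15 (numpy 2.4.6, pandas 2.3.3, scipy 1.17.1) with figures from matplotlib 3.10.9, and were tested on simulated data. The members, lists and tests were chosen with earlier results of these data known. Named genes were all members, up to 3 genes per list with the smallest unadjusted p under 0.05, and the 2 most abundant per list, except that some genes are not reported here. TPM gives no counts, so no interval for counting error was computed. Nothing in the labels gives litter, sex or batch, so no batch term could be fitted.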

Additional observations from a re-analysis of the deposited data

Results flagged for a closer look

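Slc26a2 in wild-type replicate 1, at 6.71 TPM, lay far above the other 4 wild-type libraries, its gap to the nearest of them being 0.848 of the range of the group on the log2(TPM + 1) scale, beyond Dixon's critical value of 0.71 for 5 samples. The adipocyte score of null replicate 3, at 5.54, lay above the other null libraries in the same way, with a gap of 0.839 of the range. Chance puts about 1 in 20 groups beyond this value.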

How the results depend on the processing

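Across 20 alternatives, the estimates of Papss2, Chst3, Chst11, Xylt1 and Chsy1 stayed below 0, as did that of Slc26a2 in the 19 in which it was tested (it and Slc35d1 fall under a 5 TPM minimum), and no adjusted p of the 10 genes was under 0.05. Median ratio scaling, quantile normalization and rescaling without the haemoglobin genes turned Papss1 to 0.027, 0.0074 and 0.062. The latter pair turned Csgalnact1 to 0.021 and 0.026, rescaling turned Ugdh to 0.035, and protein-coding transcripts alone turned Slc35d1 to -0.0052. Leaving out 1 mouse gave -0.12 to 0.053 for Papss1, -0.11 to 0.027 for Csgalnact1, -0.11 to 0.014 for Ugdh and -0.082 to 0.15 for Slc35d1. The count of the 10 genes lower at an unadjusted p under 0.05 was 3 after median ratio scaling, 3 after quantile normalization, 0 after rescaling, 2 with protein-coding transcripts and 0 to 5 when single mice were left out (5 without Mir324-null replicate 2, 0 without wild-type replicate 1, null replicate 1 or null replicate 5). Pathway genes lower at that threshold numbered 9 after rescaling and 8 to 19 with single mice left out, and those higher 2 after quantile normalization and 1 to 2 with single mice left out. The share of all genes lower or higher at that threshold was not computed for these settings. The counts therefore do not set the 10 genes or the pathway genes apart from other genes. Genes with an adjusted p under 0.05 numbered 0 to 1 with single mice left out (Gm37419, Igkv2-109 and Rpl30-ps9, without wild-type replicate 3, wild-type replicate 4 and Mir324-null replicate 1). Without wild-type replicate 3 the ratio of Slc26a2 to Papss2 passed, at 0.35 (adjusted exact permutation p = 0.0317), its range being 0.15 to 0.35, and genes passing relative to the chondrocyte score ranged from 0 to 7. Relations with scores that passed numbered 9, 7 and 11 after the 3 scalings, alternatives chosen after seeing the data. The cause of these shifts was not tested.

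With the replicate number as a block, 9 pathway genes were lower at an unadjusted p under 0.05 and 0 genes passed adjustment, while 1168 genes in place of 1603 had an unadjusted p under 0.05. Same-numbered libraries did not deviate together (r -0.14 to 0.056 over 5 pairs, and 0 of 10 libraries correlated best with their own number). The labels do not say whether the numbers pair mice, and these correlations could miss a weak pairing.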
